A study of Mus musculus with 6 samples.

Results

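Oxidative phosphorylation is the process by which mitochondria pass electrons along protein complexes of the inner membrane and use the resulting proton gradient to make ATP. Complexes I and II take electrons from NADH and succinate, complex III passes them to cytochrome c, complex IV hands them to oxygen, and complex V is the ATP synthase. Most subunits are encoded in the nucleus and imported, while a few are encoded in mitochondrial DNA, so a complete complex needs both genomes. The nuclear subunit genes were examined in muscle cells of the oviduct that lacked Pbrm1, which encodes a chromatin remodeling protein of the SWI/SNF family. The members were all protein-coding genes of the deposited table whose symbol began with Nduf (complex I), Uqcr (III), Cox4 to Cox8 (IV) or Atp5 (V), with Sdha to Sdhd (II), Cyc1 (III) and Cycs (cytochrome c), leaving out assembly factors. They were 88 of 54232 genes in the table. Of these, 82 passed the filter on low counts and were tested, among 15376 tested genes.

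RNA-seq had been performed on primary oviductal smooth muscle cells from mated females aged 8 to 12 weeks on day 2 of pregnancy, with 3 WT and 3 Pbrm1 cKO libraries. In the cKO animals, floxed Pbrm1 alleles were deleted by a cre recombinase inserted in the progesterone receptor gene, so deletion follows that gene and is not restricted to muscle. The labels call the controls WT, whereas a legend in the supplement names Pbrm1 fl/fl mice, and neither source says whether animals were pooled. The cells were digested from whole oviduct, filtered and plated for some hours before lysis, so other cell types can be present.

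Libraries held 15390818 to 18947947 counts, and 3 counts, taken as the floor, were worth 0.159 to 0.193 CPM (counts relative to the normalized library total). Such a floor covers counting error only. Pbrm1 was at 170.1, 183 and 172 CPM in WT and at 43.5, 50.7 and 42.7 CPM in cKO (log2 fold change -1.94, SE 0.064, edgeR adjusted p = 9.13e-11). All 10 smooth muscle markers were detected, and their summed level was 3671 to 3753 CPM in WT and 4630 to 5236 CPM in cKO.

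Near-identical copies altered the fitted change of 3 members by more than 0.1, and a stretch in which each pair differs is shown first because the values below rest on them. Each line holds 41 bases of GENCODE M21 coding sequence, 5′ to 3′, with the differing base in capitals and positions counted from 1 at the A of the member's start codon. The substitutions shown, from member to copy, are T81C in Ndufs5, A135G in Ndufa12 and C303T in Cox7a2l. Ndufs5 and Ndufa12 each had 1 further difference, A105G and T414C.
Ndufs5: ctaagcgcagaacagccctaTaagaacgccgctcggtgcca
BC002163: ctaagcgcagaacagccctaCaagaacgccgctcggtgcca
Ndufa12: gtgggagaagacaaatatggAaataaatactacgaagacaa
Gm15920: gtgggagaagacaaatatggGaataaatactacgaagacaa
Cox7a2l: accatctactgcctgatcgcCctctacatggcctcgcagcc
Gm6969: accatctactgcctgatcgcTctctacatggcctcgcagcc

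All 3 copies are processed pseudogenes on other chromosomes (GRCm38). BC002163 lies at chr16:42955631-42955949 on the plus strand and differed from Ndufs5 at 2 of 319 aligned bases. Gm15920 lies at chr5:130188395-130188796 on the plus strand and differed from Ndufa12 at 2 of 402 aligned bases. Gm6969 lies at chr12:24638669-24639010 on the minus strand, and its gapped alignment with Cox7a2l held 1 substitution in 336 aligned bases. The copy has 342 bases and aligned in 3 blocks, so gaps also set it apart from Cox7a2l. Reads that map to several places were left out of the counts. Assignment of a read within these stretches therefore depended on such substitutions and, for Gm6969, on the gaps. Placement of reads across exon junctions was not examined.

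The nuclear subunit genes changed little as a set. In cKO, 21 of the 82 tested members were higher (25.6%) and 5 were lower (6.1%) by edgeR's quasi-likelihood test at an adjusted p of 0.05. Among all 15376 tested genes, 43.7% passed the test, 21.9% being higher and 21.8% lower. The share of members that were higher was thus near that of all genes, and the share that were lower was smaller. Called shares rise with level, and most members are abundant. Among genes at a mean of 20 CPM or more, 53.4% passed, with 24.8% higher and 28.5% lower, while of the 72 members at that level 20 were higher and 4 were lower, or 33.3% called. Leaving out WT replicate 2 reduced the members called higher to 13, and leaving out cKO replicate 3 reduced them to 12.

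The changes were small. The median log2 fold change of the members was 0.07, beside 0.00 for all tested genes, and 62 members had a positive and 20 a negative value. The change was under 0.25 in either direction in 70 of 82 members (85.4%), in 55.7% of all tested genes and in 68.1% of those at 20 CPM or more. Only Ndufa4l2 among the members changed by more than 0.5. Of the 56 members that did not pass the test, 44 had a 95% interval of the log2 fold change that lay wholly within 0.25 of zero. The 3 cKO libraries did not overlap the 3 WT libraries in 38 members (46.3%), 30 upward and 8 downward, against 53.5% of all tested genes. In these bulk libraries, fewer cells of a type and less RNA per cell cannot be told apart.

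**Figure D1:**
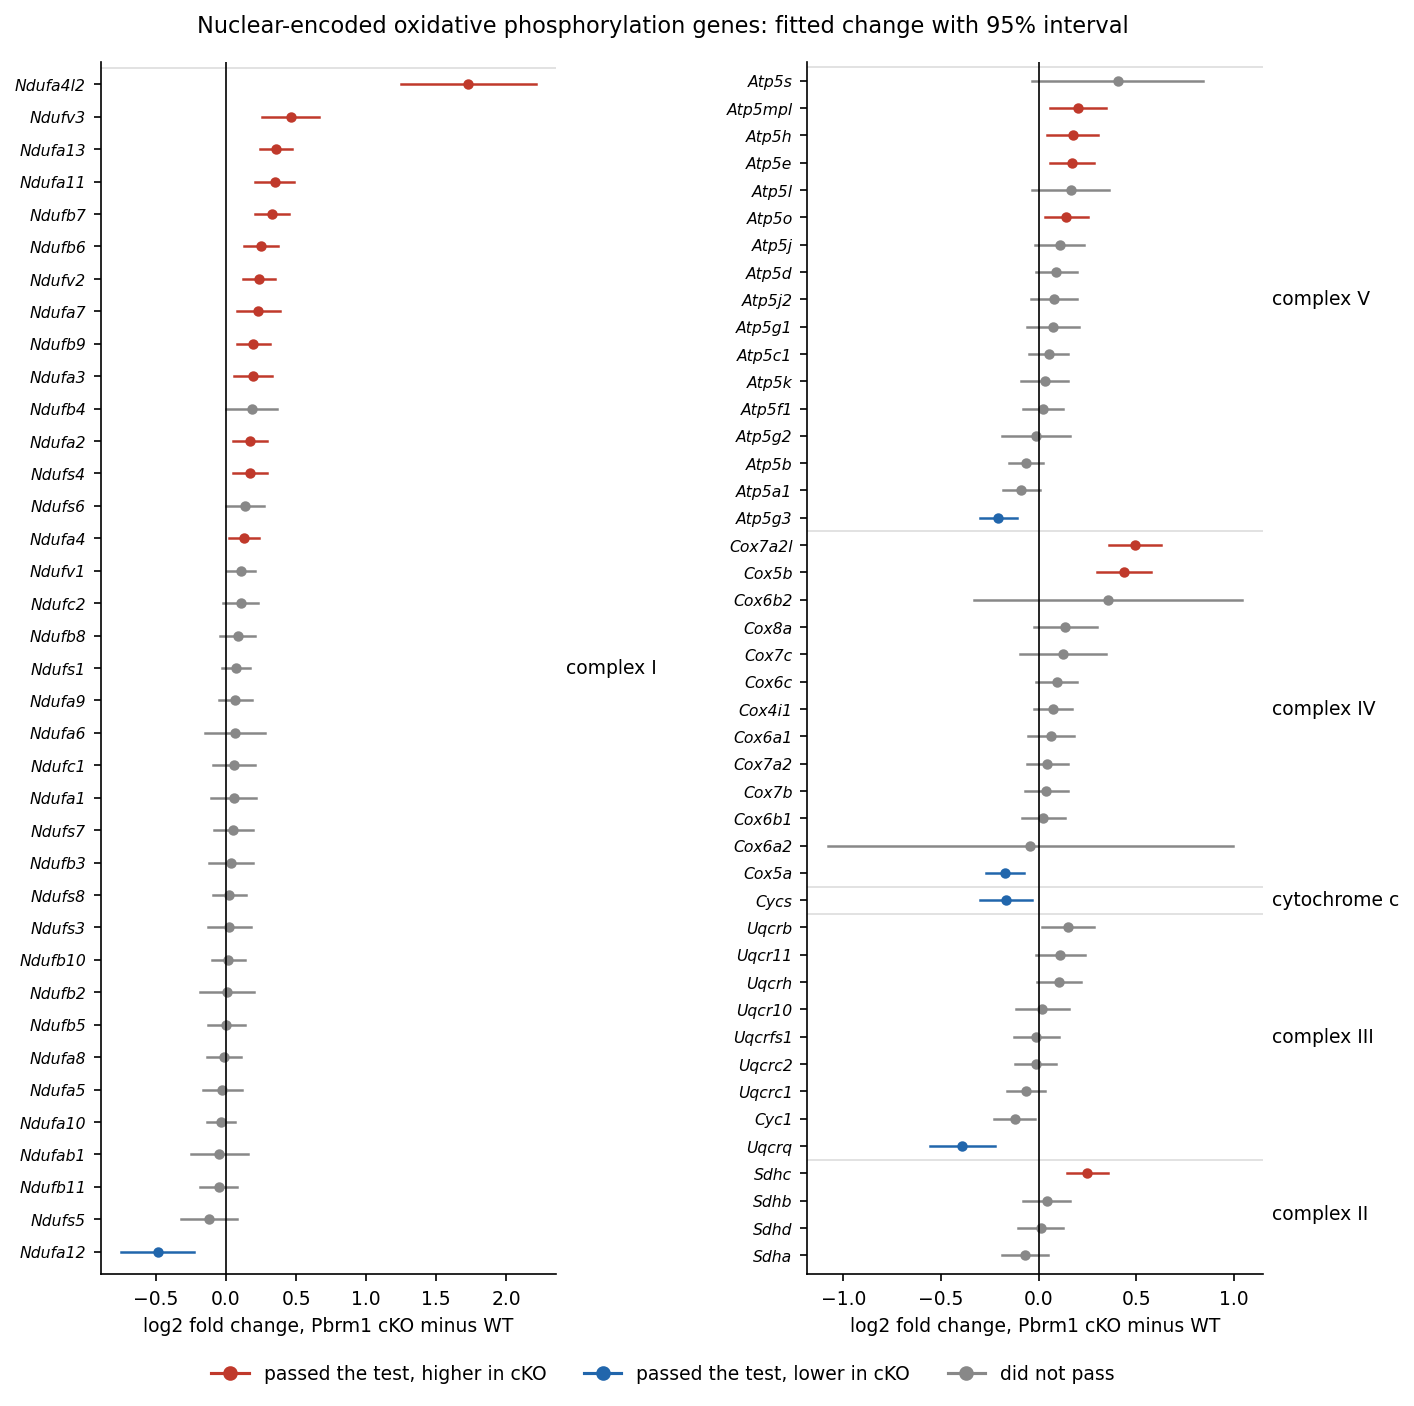
Fitted log2 fold change (x axis, Pbrm1 cKO minus WT, n = 3 per group) of tested members by complex, with 95% intervals; red and blue points passed the edgeR test as higher or lower and gray points did not. Most intervals lie close to zero, and Ndufa4l2, at 1.73, stands apart.

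Summed over members, the level was 7528, 7417 and 7702 CPM in the WT libraries and 7573, 7615 and 7922 CPM in the cKO libraries. Means were 7549 ± 144 CPM for WT and 7704 ± 191 CPM for cKO (SD, n = 3), a ratio of 102%, and the groups overlapped. The complexes differed from each other in their sums. The complex I sum in cKO was 109% of WT, at 2063, 2054 and 2177 CPM against 1934, 1870 and 1964 CPM in WT, with no overlap. The complex IV sum was 106% of WT, at 1002, 1014 and 1070 CPM against 983, 947.5 and 986.1 CPM, also with no overlap. The sums of complexes II, III and V were 102%, 98.5% and 97.8% of WT, and the libraries of the groups overlapped in each. Cytochrome c, which is 1 gene, was at 89.1% of WT. A difference between complexes was not tested. Sums weigh abundant members most, and Atp5b and Atp5a1 alone had means of 1278 and 917.6 CPM in WT. Of the 17 tested complex V members, 13 had a positive and 4 a negative log2 fold change, although the sum was lower. The median log2 deviation of all tested members from their WT mean was -0.002, -0.038 and 0.025 in WT. In cKO it was 0.051, 0.048 and 0.118, without overlap.

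**Figure D2:**
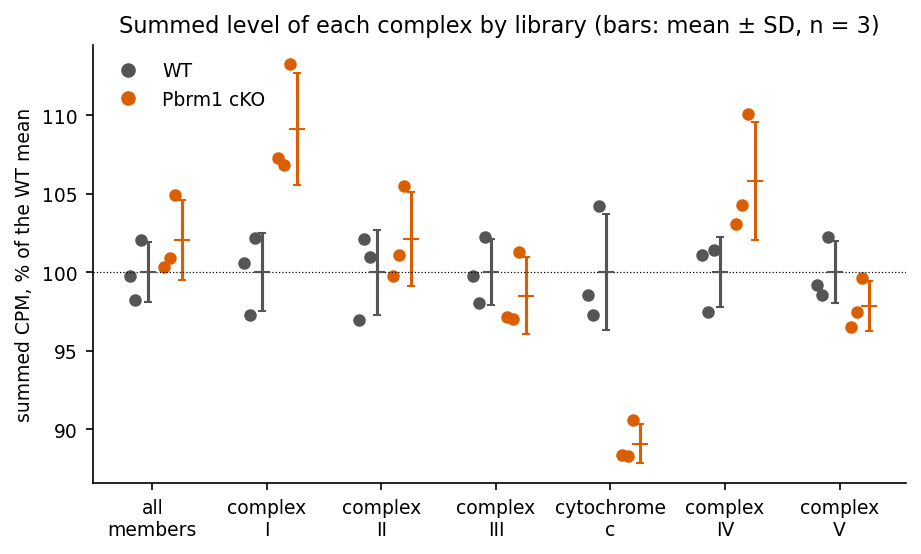
Summed CPM of each complex in every library, as a percentage of the WT mean (y axis); gray points are WT and orange points Pbrm1 cKO libraries, and bars give the mean ± SD (n = 3). All 3 cKO libraries lie above the WT libraries in complexes I and IV and below them for cytochrome c.

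Complex I held 38 members, all tested, of which 14 were higher and 1 was lower in cKO. The called share was 39.5%, below the 43.7% of all tested genes. DESeq2 called 10 higher and 1 lower. The nuclear-encoded core subunits of complex I carry the flavin and the iron-sulfur clusters or bind the quinone. All of these nuclear core subunits had positive log2 fold changes, from 0.02 to 0.24. Core subunits encoded in mitochondrial DNA are not among the members. Ndufv2, an iron-sulfur subunit of the arm that takes electrons from NADH, was at 87.0, 82.6 and 86.5 CPM in WT and at 96.3, 97.2 and 108 CPM in cKO (log2 fold change 0.24, SE 0.054, adjusted p = 0.00306). Every cKO library was above every WT library. The flavin-binding subunit Ndufv1 had a log2 fold change of 0.11 (95% interval 0.01 to 0.21, adjusted p = 0.0812) and did not pass. The iron-sulfur subunit Ndufs1 had a value of 0.07 (95% interval -0.03 to 0.17), while Ndufs3, Ndufs7 and Ndufs8 had values of 0.02, 0.05 and 0.02.

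Of the 29 accessory subunits of complex I, 10 were higher and 1 was lower (37.9% called, against 43.7% of all tested genes). Accessory subunits carry no redox centre and surround the core, where they take part in assembly and stability. Ndufv3, a small subunit of the NADH-oxidizing arm, was at 29.8, 27.0 and 32.9 CPM in WT and at 44.3, 35.2 and 44.3 CPM in cKO (log2 fold change 0.46, SE 0.094, adjusted p = 0.00136). Ndufa13, also known as GRIM-19, was at 51.6, 48.2 and 52.2 CPM in WT and at 64.7, 65.7 and 64.2 CPM in cKO (log2 fold change 0.36, SE 0.053, adjusted p = 0.000109). Its cKO libraries were tightly grouped, and all lay above the WT libraries. Ndufa11, a membrane-arm subunit, was at 38.6, 34.5 and 37.7 CPM in WT and at 47.9, 44.2 and 48.7 CPM in cKO (log2 fold change 0.35, SE 0.065, adjusted p = 0.000683). Ndufb7, also of the membrane arm, was at 48.9, 45.0 and 45.1 CPM in WT and at 56.6, 58.1 and 60.2 CPM in cKO (log2 fold change 0.33, SE 0.056, adjusted p = 0.000338). The other accessory subunits that rose, Ndufb6, Ndufa7, Ndufb9, Ndufa3, Ndufa2 and Ndufs4, had log2 fold changes of 0.17 to 0.25. Of these, Ndufa3, Ndufa2 and Ndufs4 passed under 11 to 12 of the 16 alternatives. By DESeq2 their adjusted p-values were 0.0675, 0.0619 and 0.0668.

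Ndufa12, an accessory subunit that joins late in assembly, was the only complex I member that was lower. It was at 22.9, 22.4 and 23.5 CPM in WT and at 12.5, 19.5 and 17.0 CPM in cKO (log2 fold change -0.49, SE 0.12, adjusted p = 0.00504), without overlap. Its copy Gm15920 was at 14.4, 14.2 and 15.4 CPM in WT and at 17.4, 15.97 and 17.95 CPM in cKO. When the counts of the copy were added, the sum was at 37.4, 36.6 and 38.9 CPM in WT and at 29.9, 35.5 and 34.9 CPM in cKO, and the log2 fold change was -0.17 (SE 0.072, adjusted p = 0.0707). The call for Ndufa12 was thus lost when the copy was added. Whether reads were divided correctly between the gene and its copy was not tested.

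Ndufa4 and Ndufa4l2 are paralogs named after complex I. Ndufa4 has since been found with complex IV, and Ndufa4l2 is known as a gene induced by hypoxia that lowers mitochondrial oxygen use. Ndufa4l2 (chr10:127514967-127517154, plus strand) was at 2.78, 2.73 and 2.23 CPM in WT and at 10.1, 5.62 and 10.2 CPM in cKO. Every cKO library was above every WT library, and cKO replicate 2 was the lowest of the 3. The log2 fold change was 1.73 (SE 0.22, 95% interval 1.25 to 2.21, adjusted p = 3.42e-05), and 1.87% of all tested genes had a larger change in either direction. Ndufa4 was at 124.9, 115.2 and 128.6 CPM in WT and at 132.3, 134 and 137.4 CPM in cKO (log2 fold change 0.13, SE 0.050, adjusted p = 0.0465). It passed under 9 of the 16 alternatives, with an adjusted p of 0.0954 by DESeq2. Despite its rise, Ndufa4l2 in cKO was at 7.89 CPM per kb of exon, against 97.5 CPM per kb for Ndufa4.

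Complex II links the citric acid cycle to the chain and has 4 subunits, all nuclear. Sdhc, a membrane anchor, was at 85.5, 84.2 and 87.0 CPM in WT and at 99.4, 99.6 and 106.4 CPM in cKO (log2 fold change 0.25, SE 0.048, adjusted p = 0.000833), without overlap. The other three did not pass and overlapped between groups. The flavoprotein Sdha had a log2 fold change of -0.07 (95% interval -0.19 to 0.05), the iron-sulfur subunit Sdhb of 0.04 (-0.08 to 0.16) and the anchor Sdhd of 0.01 (-0.11 to 0.13).

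Complex III had 9 members, of which 1 was lower and 0 were higher by edgeR, DESeq2 or limma-voom, with 1 higher at an unadjusted p under 0.05 (Uqcrb, log2 fold change 0.15). By edgeR 11.1% were called, against 43.7% of all tested genes. Uqcrq, a small subunit near the quinone site (chr11:53427922-53430831, minus strand), was at 38.9, 35.4 and 35.01 CPM in WT and at 30.8, 25.3 and 27.3 CPM in cKO (log2 fold change -0.39, SE 0.078, adjusted p = 0.00118). All cKO libraries lay below the WT libraries. Cyc1, a subunit that carries a haem, was at 118.2, 125 and 126.3 CPM in WT and at 114.4, 117 and 107.8 CPM in cKO. Its groups did not overlap, but the test was not passed (log2 fold change -0.12, SE 0.049, adjusted p = 0.056). The Rieske iron-sulfur protein Uqcrfs1 had a log2 fold change of -0.01 (95% interval -0.13 to 0.10), and the core proteins Uqcrc1 and Uqcrc2 had values of -0.06 and -0.02. Cycs, the mobile carrier between complexes III and IV, was at 31.8, 31.4 and 33.6 CPM in WT and at 28.5, 28.5 and 29.2 CPM in cKO (log2 fold change -0.17, SE 0.062, adjusted p = 0.0429). It passed the test under 6 of the 16 alternatives. With its 4 near-identical copies added, Cycs did not pass (log2 fold change -0.15, SE 0.061, edgeR adjusted p = 0.0609).

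In complex IV, 13 of 18 members were tested, 2 were higher and 1 was lower (23.1% called, against 43.7% of all tested genes). Cox7a2l, known for joining complexes III and IV in supercomplexes (chr17:83501919-83514333, minus strand), was at 45.7, 45.8 and 48.1 CPM in WT and at 65.0, 60.8 and 70.9 CPM in cKO (log2 fold change 0.49, SE 0.062, adjusted p = 2.91e-05). Its copy Gm6969 moved the other way, at 9.22, 10.8 and 8.96 CPM in WT and at 5.01, 3.61 and 5.28 CPM in cKO (log2 fold change -1.07, SE 0.15, adjusted p = 5.32e-05). With the copy added, the log2 fold change of Cox7a2l was 0.32 (SE 0.062, adjusted p = 0.00097), which still passed. Cox5b and Cox5a are nuclear subunits of the enzyme, on its matrix side, and they moved in opposite directions. Cox5b (chr1:36691449-36693681, plus strand) was at 25.9, 24.3 and 26.9 CPM in WT and at 34.3, 34.9 and 35.3 CPM in cKO (log2 fold change 0.44, SE 0.064, adjusted p = 0.000104). Cox5a was at 78.6, 80.6 and 80.9 CPM in WT and at 71.1, 71.3 and 70.7 CPM in cKO (log2 fold change -0.17, SE 0.046, adjusted p = 0.00816). Both had no overlap between groups. Gm11273, a copy of Cox5b with 99.2% identity that is annotated as protein coding, also rose (log2 fold change 0.38, SE 0.13, adjusted p = 0.0266). It passed under 10 of 15 alternatives, with an adjusted p of 0.105 by DESeq2.

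Several complex IV subunits exist as a general form and a form known from certain tissues. In every set, the general form was present and its tissue form was under 1 CPM on average. Cox6a2, Cox7a1 and Cox8b are known from heart and skeletal muscle. Cox6a2 was at 0.66 ± 0.25 CPM per kb in WT and Cox7a1 at 0.64 ± 0.14 CPM per kb, whereas Cox6a1 was at 171 ± 12.6 and Cox7a2 at 106 ± 4.92 CPM per kb (SD, n = 3). Cox8b had 0 counts in all 6 libraries, while Cox8a was at 96.1 ± 8.07 CPM per kb in WT. Cox4i2, a form known from lung, was at 0.43 ± 0.12 CPM per kb in WT, against 142 ± 2.61 CPM per kb for Cox4i1. Of the forms known from testis, Cox6b2 was at 0.63 ± 0.13 CPM per kb, and Cox7b2 and Cox8c had 0 counts. Cox6b1 and Cox7b were at 180 ± 7.54 and 80.7 ± 1.7 CPM per kb. None of the general forms passed the test, with log2 fold changes of 0.02 to 0.14. Cox4i2, Cox7a1, Cox7b2, Cox8b and Cox8c were not tested, and Cox6a2 and Cox6b2 were tested at levels too low for a narrow interval (-1.08 to 0.99 and -0.33 to 1.04).

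Complex V had 18 members, 17 of them tested, with 4 higher and 1 lower (29.4% called, against 43.7% of all tested genes). Its catalytic subunits were the most abundant members. Atp5b, the beta subunit, was at 302 ± 5.94 CPM per kb in WT and 288 CPM per kb in cKO, and Atp5a1, the alpha subunit, at 293 ± 9.87 and 275 CPM per kb. All 3 cKO libraries lay below the WT libraries for each, but neither passed the test (log2 fold changes -0.07, 95% interval -0.15 to 0.02, and -0.09, -0.18 to 0.01). The gamma subunit Atp5c1, which turns within the catalytic head, had a value of 0.05 (95% interval -0.05 to 0.15).

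Atp5g1, Atp5g2 and Atp5g3 encode the same mature ring subunit with different import sequences. Atp5g3 was at 164.1, 173.4 and 170 CPM in WT and at 149.3, 145.8 and 144.6 CPM in cKO (log2 fold change -0.21, SE 0.044, adjusted p = 0.0017), without overlap. It was also the most abundant of these, at 77.6 ± 2.16 CPM per kb in WT against 7.62 ± 0.16 for Atp5g1 and 8.51 ± 0.071 for Atp5g2. Atp5g1 and Atp5g2 have near-identical copies, and reads shared with a copy were not counted, so this gap can be overstated. Atp5g1 had a log2 fold change of 0.08 (95% interval -0.06 to 0.21) and Atp5g2 of -0.01 (-0.19 to 0.16). The 4 members that rose were small or stalk subunits. Atp5mpl, a small membrane subunit, was at 49.2, 46.8 and 54.5 CPM in WT and at 57.4, 54.6 and 61.1 CPM in cKO (log2 fold change 0.20, SE 0.066, adjusted p = 0.0243). Atp5h, Atp5e and Atp5o, which encode the d, epsilon and oligomycin-sensitivity subunits, had log2 fold changes of 0.17 (SE 0.061, adjusted p = 0.0333), 0.17 (SE 0.053, adjusted p = 0.0181) and 0.14 (SE 0.050, adjusted p = 0.0342). None of these 4 overlapped between groups, and they passed the test under 10 to 12 of the 16 alternatives. A second identifier that also carries the symbol Atp5o and overlaps the end of the gene had 0 counts in all libraries. The ATPase inhibitor Atpif1, which is outside the member rule by its symbol, fell in cKO. Its mean dropped from 75.1 ± 5.63 to 60.5 ± 4.49 CPM, with a log2 fold change of -0.31 (SE 0.067, adjusted p = 0.00186).

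Levels per length spanned a wide range within each complex. In WT, Ndufa2 was the highest complex I member at 105 ± 5.71 CPM per kb and Ndufa4l2 the lowest at 2.35 ± 0.28. In complex II, Sdhd was highest at 93.4 ± 3.9 CPM per kb and Sdhc lowest at 26.3 ± 0.43. In complex III, Uqcr10 was highest at 94.7 ± 3.89 CPM per kb and Uqcrq lowest at 19.9 ± 1.18. Thus the called members Ndufa4l2, Sdhc and Uqcrq were the lowest tested members of their complexes in WT. Cox6b1 and Cox6b2 were the highest and lowest tested members of complex IV, and Atp5b and Atp5s, at 0.9 ± 0.13 CPM per kb, those of complex V. Some neighbours in the order differed by less than their spread, such as Uqcrfs1 (57.3 ± 2.42 CPM per kb) and Cyc1 (57.2 ± 2.03 CPM per kb). Exon length here is the union of all annotated exons, which understates the level of genes with long rare exons. Reads shared with a near-identical copy were not counted, which can understate the level of members with copies.

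**Figure D3:**
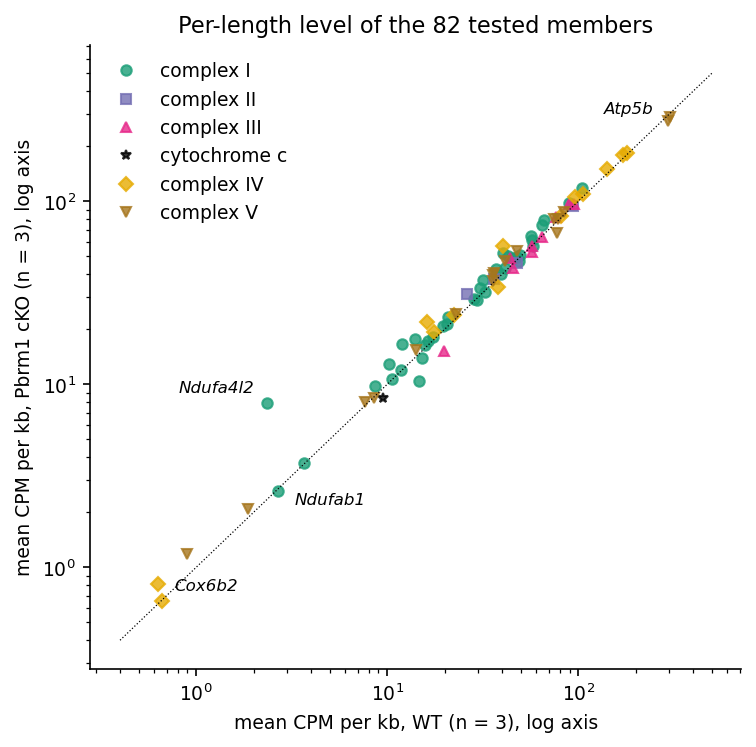
Mean CPM per kb of exon in WT (x axis) and Pbrm1 cKO (y axis, both log scales, n = 3 per group) for the 82 tested members, with symbols by complex and the dotted line at equality. The members lie along the line over a range from 0.629 CPM per kb in WT for Cox6b2 to 302 for Atp5b, with Ndufa4l2 above it.

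In all, 49 near-identical copies were found for 24 members, and 19 of the copies were tested. Adding their counts moved the log2 fold change by more than 0.1 in 3 members, of which Ndufs5 changed its direction. Ndufs5, an accessory subunit of complex I, was at 13.8, 12.2 and 13.2 CPM in WT and at 11.7, 11.6 and 12.7 CPM in cKO (log2 fold change -0.12, SE 0.093, adjusted p = 0.307). BC002163 had 0, 2 and 2 counts in the WT libraries and 47, 96 and 72 counts in the cKO libraries. The copy was thus under the floor in WT and above it in every cKO library, and it passed the filter on low counts only through the cKO group, so no fold change is given for it. With the copy added, the fitted log2 fold change of Ndufs5 was 0.29. This value rests on these copy counts, so no p-value is given for it. A copy of Atp5o, Gm5436, rose with its member (log2 fold change 0.28, SE 0.10, adjusted p = 0.0394), and passed under 10 of 15 alternatives. Gm15920 also passed (0.22, SE 0.084, adjusted p = 0.0486), but under only 5 of 15 alternatives. By DESeq2 their adjusted p-values were 0.0964 and 0.147.

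**Figure D4:**
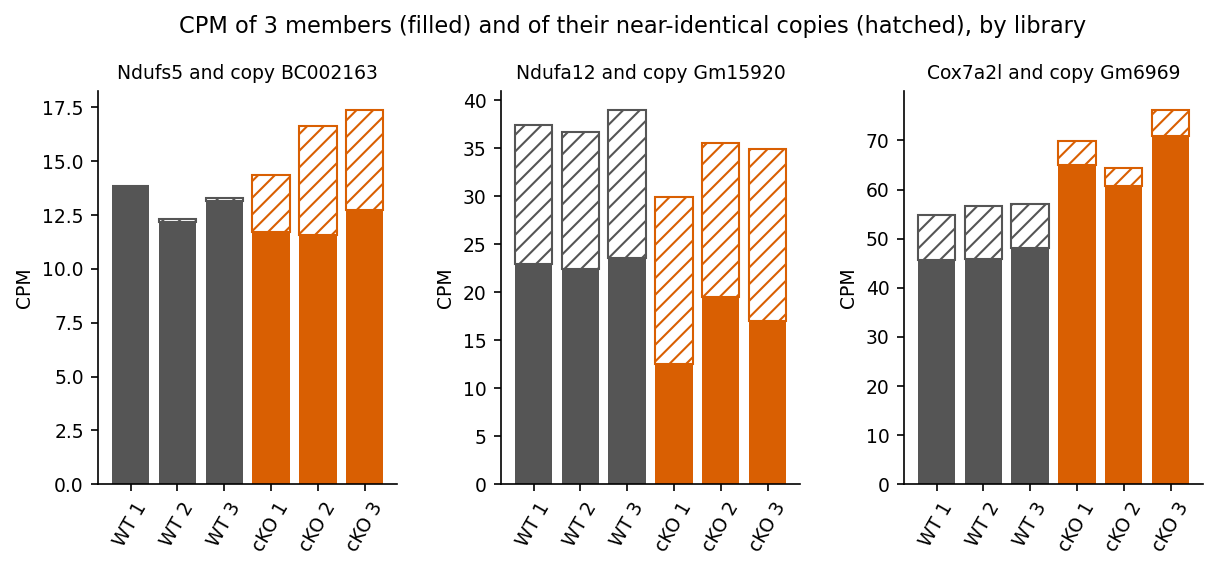
CPM (y axis) of Ndufs5, Ndufa12 and Cox7a2l (filled) and of their copies BC002163, Gm15920 and Gm6969 (hatched) in each library (x axis), in gray for WT and orange for Pbrm1 cKO. BC002163 is visible almost only in cKO, Gm6969 is smaller in cKO, and Gm15920 is comparable in size to Ndufa12 itself.

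The called members were spread over the genome. Tested members lay on 19 chromosomes, and those that rose on 14. On chromosome 17, 5 of 6 tested members rose (Ndufv3, Ndufa11, Ndufa7, Ndufv2 and Cox7a2l), while 22.1% of all 709 tested genes on that chromosome were higher. The remaining member there, Ndufb10, had a log2 fold change of 0.02. This count was noticed after the values were seen and was not tested.

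Promoter sequence (250 bases before to 50 after the start, RefSeq, GRCm38.p6) was at hand for 67 of the 82 tested members. Motifs were searched on both strands. The palindrome made of GCGC, any 2 bases and GCGC again, bound by the respiratory regulator NRF1, was present in 18 of 67 members (26.9%) and in 13.3% of 10571 promoters of tested protein-coding genes. CCGGAAG, an ETS motif, was present in 22.4% of members and 17.5% of promoters, and the YY1 motif AAGATGGCG in 8.96% and 3.09%. The GC box GGGCGG was less frequent in members (43.3%) than in all promoters (64.4%), and CCAAT was in 43.3% and 38.6%. The hypoxia response core, ACGTG or GCGTG, was in 62.7% of members and 62.6% of promoters. The NRF1 letters were in 4 of the 15 members with a promoter sequence that rose in cKO. Upstream stretches of 2 of these are shown, with the NRF1 letters in capitals. That of Ndufa11 is chr17:56717662-56717761 on the plus strand, and that of Atp5h is chr11:115419970-115420079 on the minus strand.
Ndufa11: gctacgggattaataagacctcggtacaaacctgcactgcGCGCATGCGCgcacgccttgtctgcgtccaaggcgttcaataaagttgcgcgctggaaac
Atp5h: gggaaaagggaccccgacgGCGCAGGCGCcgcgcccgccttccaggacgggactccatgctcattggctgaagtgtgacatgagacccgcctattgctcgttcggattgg

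The genes that build and supply the chain were set beside its subunits. Of 51 tested assembly factors, 11 were higher and 8 were lower (median log2 fold change 0.03). The called share was 37.3%, below the 43.7% of all tested genes. Lyrm7, which matures the Rieske protein of complex III, fell from 3.97 ± 0.30 to 1.66 ± 0.61 CPM (log2 fold change -1.24, SE 0.22, adjusted p = 0.000527). Tmem126b, a factor for the membrane arm of complex I, rose from 13.8 ± 1.34 to 22.1 ± 0.33 CPM (log2 fold change 0.68, SE 0.085, adjusted p = 2.53e-05). Tmem70, needed for the ATP synthase, had a log2 fold change of 0.43 (SE 0.060, adjusted p = 6.79e-05). Ndufaf7, an assembly factor of complex I, had one of 0.42 (SE 0.082, adjusted p = 0.000995), and Sdhaf4, a factor for Sdha, of 0.45 (SE 0.16, adjusted p = 0.0326).

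Of 18 tested regulators of mitochondrial biogenesis, 2 were higher and 10 were lower, with a median of -0.22 and 66.7% called, against 43.7% of all tested genes. DESeq2 called 0 of them higher and 8 lower. Ppargc1b, a coactivator of respiratory genes, fell from 1.26 ± 0.086 to 0.57 ± 0.21 CPM (log2 fold change -1.11, SE 0.32, adjusted p = 0.0118). Myc (-0.38), the mitochondrial helicase Twnk (-0.36) and the mitochondrial RNA polymerase Polrmt (-0.31) also fell, and Polg2, a subunit of the mitochondrial DNA polymerase, rose by 0.46, a call lost with DESeq2. Among 77 genes of the mitochondrial ribosome, 6 were higher and 16 were lower (median -0.06, 28.6% called), Mrpl48 (0.45), Mrps33 (0.36), Mrps2 (-0.36), Mrps26 (-0.34) and Mrpl34 (-0.33) having the largest changes. Of 18 citric acid cycle genes, 6 were lower and none was higher (median -0.05, 33.3% called), with Dlat (-0.25) and Pdhb (-0.23), subunits of pyruvate dehydrogenase, Mdh2 (-0.21), Ogdh (-0.21) and Idh3a (-0.19) having the largest changes. Of 19 genes for abundant membrane proteins and chaperones of mitochondria, 8 were lower and none was higher (median -0.09, 42.1% called), among them Tomm20 (-0.34), Hspd1 (-0.33), Tomm40 (-0.26), Slc25a3 (-0.25) and Vdac1 (-0.22). In both of these lists DESeq2 and limma-voom also called 0 genes higher, and edgeR found 0 higher at an unadjusted p under 0.05. Without cKO replicate 1, 12 assembly factors and 5 regulators were called, and without WT replicate 2, 7 regulators and 3 citric acid cycle genes were called. No test compared these lists with the subunit genes.

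The subunits encoded in mitochondrial DNA moved further. Of 13 such genes 8 were tested, and all 8 were lower in cKO, with a median log2 fold change of -0.53. Among all tested genes, 21.8% were lower. DESeq2 called 6 and limma-voom 7 of them lower, and 6 to 7 were called with 1 library left out. Their summed level was 3646 to 4036 CPM in WT and 2590 to 3275 CPM in cKO. The labels name a depletion of targeted transcripts during library preparation, and the other five mitochondrial genes were near or at zero counts.

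**Figure D5:**
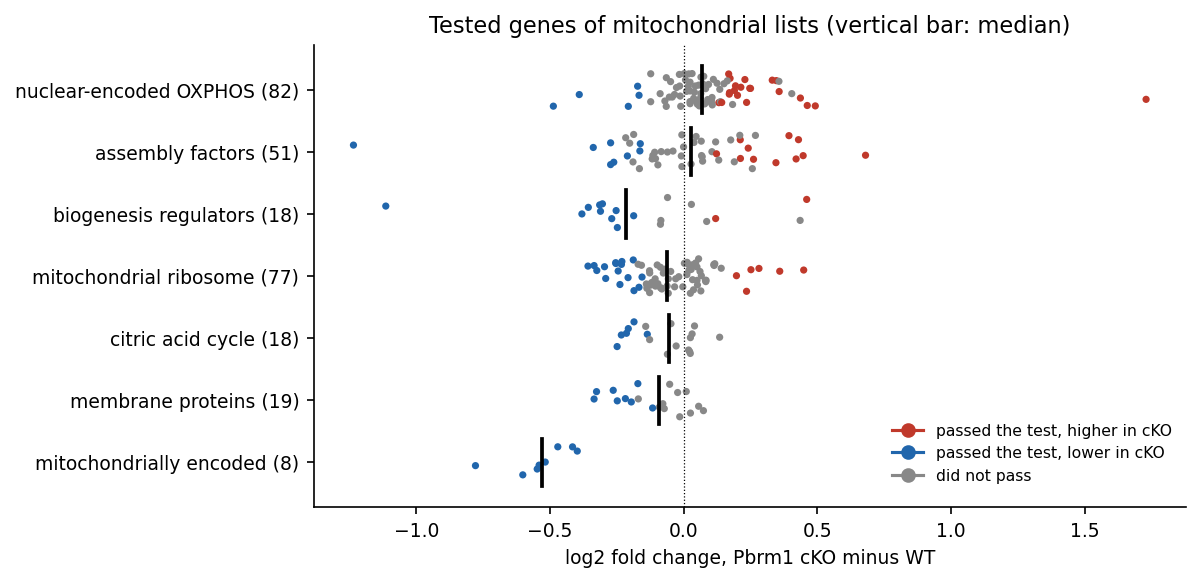
Log2 fold changes (x axis, Pbrm1 cKO minus WT) of the tested genes of each mitochondrial list, with the number tested in parentheses, red and blue points for genes that passed the test as higher or lower, and a vertical bar at the median. The median of the nuclear-encoded subunits is 0.07 and that of the 8 mitochondrially encoded genes is -0.53.

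Markers of other cell types differed between the groups. Called shares of the marker lists ran from 30.0% (endothelial) to 100% (leukocyte) of tested markers. Among all tested genes 43.7% were called, 21.9% being higher and 21.8% lower. All 12 leukocyte markers were higher in cKO, with a summed level of 787.4 to 836 CPM in WT and 1263 to 1357 CPM in cKO. Of the fibroblast markers, 8 of 11 tested were higher and 1 was lower (6559 to 7271 against 9855 to 10170.0 CPM). Of 11 epithelial markers 7 were higher and 1 was lower (1148 to 1249 against 1373 to 1530.0 CPM), and of 10 smooth muscle markers 6 were higher and 1 was lower. Of 8 mesothelial markers 5 were lower (229.7 to 240.7 against 174.5 to 176.8 CPM), and of 10 endothelial markers 2 were higher and 1 was lower (365.9 to 385.2 against 308.4 to 316.4 CPM). Markers of brown fat and striated muscle, cells rich in these subunits, summed to 13.5 to 16.4 CPM in WT and 2.51 to 4.51 CPM in cKO, and Ucp1, Ckm, Myh6, Myh7 and Myl2 were below the floor on average. The part of these shifts in the values of the members was not tested.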

How the data were processed

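The authors deposited raw read counts for every gene in 6 libraries. Per the file headers, featureCounts 1.6.4 assigned reads to GENCODE M18 exons (GRCm38.p5) by strand, with multi-mapping and ambiguous reads dropped. Per the labels, cutadapt and HISAT2 were also used. Symbols came from GENCODE M21 for 54165 of 54232 genes.

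Counts were tested with edgeR 4.0.16 (two-sided quasi-likelihood test, TMM factors, filterByExpr by group; R 4.3.3) on all genes, with Benjamini-Hochberg adjustment and a threshold of 0.05. CPM are given per library or as mean ± SD over 3 libraries. Replicates of a group differed beyond sampling noise. The labels number replicates but do not say that the samples came from separate cultures or animals, while a legend of the supplement calls such libraries biological replicates; p-values measure the spread between these samples. Alternatives were DESeq2 1.42.0, limma-voom 3.58.1, other scalings and filters, a replicate block, leaving out each library, and adding copies found with BLAST 2.17.0 (95% identity over 90% of the copy). The test was checked on simulated data.

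Named genes were, per complex, up to 5 called members with the largest change, core subunits, paralog sets, the highest and lowest per length, members with a copy, and up to 5 called genes of each list. Members and lists were chosen with earlier results of these data known. The values of 1 member are not reported here, though it is included in the counts and sums.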

Additional observations from a re-analysis of the deposited data

How the results depend on the processing

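The number of members called higher was 21, and it was 15 with DESeq2 (4 lower), 11 at an adjusted p of 0.01, and 12 to 24 when 1 library was left out. The number called lower was 5, and it was 3 with copies added and 4 to 5 when 1 library was left out. Among all 16 alternatives, 15 of the 26 called members passed in each. Of 1310 values of members under alternatives, 51 lost the call (36 by leaving out a library), 8 gained one and 1 reversed. The reversal was Ndufs5 at 0.29 with its copy added, a value that rests on copy counts found almost only in cKO. Ndufa12 and Cycs lost their calls with copies added. The median of the members ranged from 0.04 to 0.09, and scaling moved the median of all genes by at most 0.017. Called genes of the lists ranged, with 1 library left out, from 12 to 19 for assembly factors, 5 to 10 for biogenesis regulators, 15 to 22 for the mitochondrial ribosome and 3 to 7 for the citric acid cycle. DESeq2 called 6 citric acid cycle and 8 membrane genes.

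The labels do not say that replicate numbers pair the samples. Correlations of deviations between same-numbered libraries were -0.036, 0.053 and 0.13, which cannot decide it with 3 libraries per group. With the number as a replicate block, 21 members were higher and 5 lower, and all 26 calls were shared. Over all genes, 6908 were called with the block and 6723 without. Depth limits the tissue forms of complex IV and the copy BC002163, which had 0 to 2 counts in WT.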

Other observations

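Genes that belong to these complexes under another name were not members. Usmg5, a small subunit of complex V, had means of 31.3 ± 0.14 (WT) and 31.6 ± 3.60 CPM (cKO; SD, n = 3) and a log2 fold change of 0.01 (95% interval -0.16 to 0.18). Ndufb1-ps, annotated as a long noncoding RNA, was at 36.5 ± 2.20 and 40.5 ± 3.73 CPM (log2 fold change 0.15, SE 0.075, edgeR adjusted p = 0.13). Members have short transcripts, and of the 82 tested, 19 had under 1000 bases of exon and 31 had 1000 to 2000. Their median log2 fold changes were 0.04 and 0.12, beside 0.02 and 0.05 for all tested protein-coding genes of those lengths.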
